A study of Mus musculus with 4 samples.

Results

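Expression of 10 genes of the WNT pathway was examined in mouse embryos at embryonic day 8.5: the ligands Wnt5a, Wnt5b and Wnt11, the receptors Fzd5 and Fzd8, the secreted antagonists Sfrp1, Sfrp5 and Dkk1, and the target genes Axin2 and Lef1. The genes were chosen by name, with earlier results of these data known, as 10 of the 18193 genes to which the array's annotation gives a symbol. All probe sets annotated with 1 of these symbols alone were taken, which gave 24 of the 45037 probe sets that are not Affymetrix controls. The study compared foregut endoderm, dissected from the anterior intestinal portal, with neighbouring tissue that is not endoderm, namely mesoderm of the heart pooled with mesoderm and ectoderm of the head folds and called mesoderm/ectoderm here. All embryos were of the ARC/s strain, were collected at 4 to 5 somites and carried no stated mutation or treatment. Each of the 4 samples, 2 per tissue, was RNA from 15 to 20 pooled tissue pieces on 1 array, and tissues numbered 1 were separated by hand while those numbered 2 were first digested with trypsin and pancreatin, per the labels' protocols. A second description field calls foregut endoderm 2 ectoderm, whereas its other labels name foregut endoderm.

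WNT proteins are secreted, lipid-modified ligands that bind Frizzled receptors on the cell surface. In the canonical branch, Frizzled acts with LRP co-receptors to stabilise beta-catenin, which enters the nucleus and switches on target genes with TCF and LEF factors. Other branches, used by Wnt5a and Wnt11 among others, act on cell polarity and movement without beta-catenin. Secreted Frizzled-related proteins (SFRP) bind the ligands outside the cell, and Dickkopf proteins such as Dkk1 block the LRP co-receptors. Repression of WNT signalling is needed for head formation in mouse and frog embryos, and for the foregut in frog embryos.

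Levels are log2 GC-RMA intensities, and every difference is a log2 difference, foregut endoderm minus mesoderm/ectoderm, unless named otherwise. A probe set counted as measured where its level exceeded 5 on at least 2 arrays. Of the 24 probe sets 13 met this, and they covered 9 of the 10 genes. The lowest level of an array, its floor, lay between 2.25 and 2.28, and 5 of the remaining 11 probe sets were within 0.1 of it on all 4 arrays. Levels of different probe sets cannot be ranked against each other, because each binds its target with its own strength.

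The arrays did not all match their tissue labels. Of 14 markers of foregut and epithelial endoderm, 13 lay above a level of 5 in each foregut endoderm sample, against 7 in mesoderm/ectoderm 1 and 9 in mesoderm/ectoderm 2. Their summed intensity was 8518 and 28580 in foregut endoderm 1 and 2, against 821 and 2965 in mesoderm/ectoderm 1 and 2. Of 15 heart muscle markers, 12 were above 5 in foregut endoderm 1 and 5 in foregut endoderm 2, against 0 in mesoderm/ectoderm 1 and 15 in mesoderm/ectoderm 2, with summed intensities of 14982 and 1291 against 144 and 118023. Mesoderm/ectoderm 1 thus lacked measured heart muscle transcripts, with Tnni3 at the floor and Tnnt2 at 2.51, while foregut endoderm 1 held Tnnt2 at 10.84. Of 13 neural plate markers, 12 were lower in foregut endoderm within both replicates, the exception being Otx2, and the groups did not overlap for 10. Of all measured genes, 24.3% were lower in both replicates, and 9.05% of all measured probe sets did not overlap with foregut endoderm lower. Sox2 was level in replicate 2 (11.71 against 11.73). Rax, in both counts, was below the filter, at 2.25 and 2.47 in foregut endoderm against 2.48 and 3.53 in mesoderm/ectoderm. Their sums were 2037 and 4561 in foregut endoderm 1 and 2, against 7924 and 6249 in mesoderm/ectoderm 1 and 2. Most of the sum in foregut endoderm 2 was Sox2 (level of 11.71) and Otx2 (9.88). The median levels of the 13 were 3.57 and 2.89 in foregut endoderm 1 and 2, against 7.99 and 6.98 in mesoderm/ectoderm 1 and 2. Across the 13288 measured probe sets, arrays of the same number correlated more closely (Pearson's r of 0.928 and 0.907) than the 2 foregut endoderm arrays (0.867) or the 2 mesoderm/ectoderm arrays (0.814) did, so each difference is also given within replicate 1 and within replicate 2. In pooled tissue, fewer cells of a type and less RNA per cell cannot be told apart.

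None of the WNT probe sets passed the test of the tissues. With limma and Benjamini-Hochberg adjustment over 13288 probe sets, 0 of the 13 had an adjusted p under 0.05, and percent called was 0% over all probe sets as well. At an unadjusted p under 0.05 limma gave 4 of the 13 and 500 of all. A limma fit with a replicate block also called 0 probe sets, with 5 of the 13 and 1326 of all at an unadjusted p under 0.05. Without a test, 4 of the 13 were 2-fold or more apart with the same sign in both replicate pairs, 2 higher and 2 lower in foregut endoderm. The background for that count was 4.57% of all measured probe sets, or 3.57% higher and 1.00% lower. The 2 higher probe sets were both of Wnt5a. By gene, on the brightest probe set, 1 of the 9 was higher and 2 lower, against 3.54% and 1.24% of all 7802 measured genes. Differences of 2-fold or more but opposite sign were found for 0 of the 13 probe sets, against 2.07% of all. The groups did not overlap for 9 of the 13, 2 higher and 7 lower in foregut endoderm, against 25.5% of all probe sets, 16.4% higher and 9.05% lower. Among the 7, the gap was only 0.01 for Wnt5b 1422602_a_at, 0.02 for Fzd8 and 0.06 for Lef1. The floors ran the same way, at 2.25 and 2.27 in foregut endoderm 1 and 2, against 2.28 in each mesoderm/ectoderm sample. Such small gaps therefore do not show a tissue difference. The median difference was -0.35 over the 13 probe sets and 0.10 over all, and the median size of a difference was 1.10 against 0.33. The members were chosen with earlier results of these data known, so their counts and medians beside the background are no independent result.

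**Figure D1:**
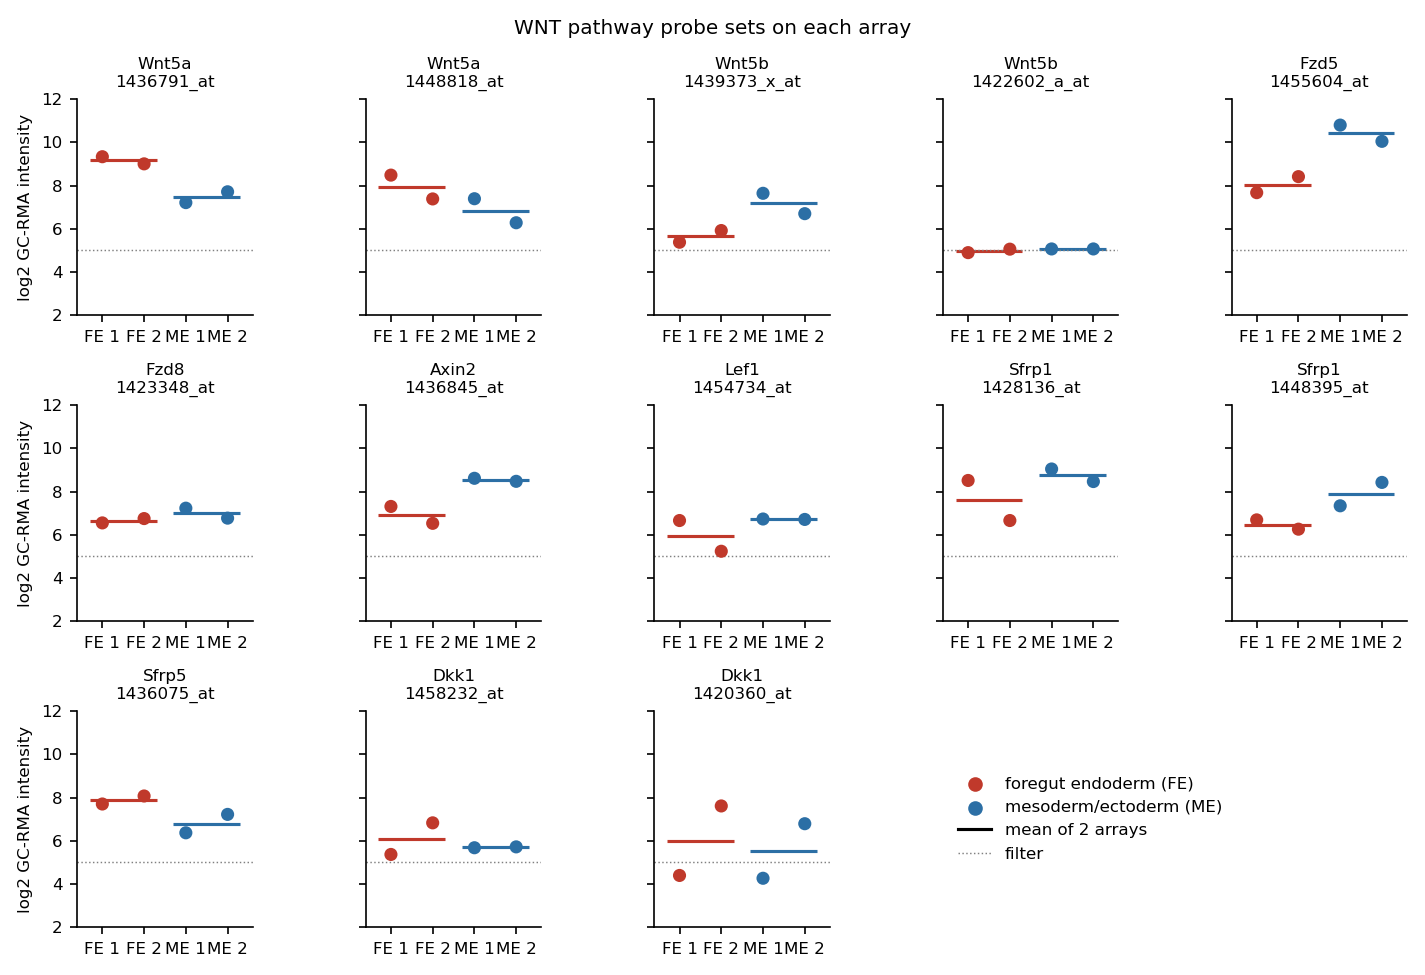
Log2 GC-RMA intensity (vertical axes) of the 13 measured WNT probe sets on foregut endoderm arrays FE 1 and FE 2 (red) and mesoderm/ectoderm arrays ME 1 and ME 2 (blue), with bars at the means of 2 arrays and a dotted line at the filter of 5. Both Wnt5a panels and Sfrp5 have the higher mean in red, Fzd5 and Axin2 have both blue points above both red points, and Dkk1 1420360_at has both arrays numbered 2 above both arrays numbered 1.

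The ligands differed in direction. Wnt5a, a ligand of the branch without beta-catenin, was measured by 2 probe sets. Probe set 1436791_at had levels of 9.33 and 9.00 in foregut endoderm 1 and 2, against 7.21 and 7.71 in mesoderm/ectoderm 1 and 2. Both foregut endoderm samples lay above both mesoderm/ectoderm samples, by at least 1.29. The means were 9.17 ± 0.23 and 7.46 ± 0.36 (SD, n = 2 each), a difference of 1.71 ± 0.37 (SE) or 3.27-fold, with limma's adjusted p = 0.956 and 0.476 with the replicate block. The difference was 2.12 in replicate 1 and 1.29 in replicate 2, and omitting any 1 array left it between 1.46 and 1.96.

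Probe set 1448818_at of Wnt5a had levels of 8.48 and 7.38 in foregut endoderm 1 and 2, against 7.39 and 6.28 in mesoderm/ectoderm 1 and 2. Here the groups overlapped slightly, since foregut endoderm 2 and mesoderm/ectoderm 1 were level, while within each replicate the foregut endoderm sample was higher. The differences of 1.09 and 1.11 lay just above the 2-fold limit, and their mean of 1.10 had an SE of 0.65, or 0.22 with the block (limma's adjusted p = 1 and 0.481). Omitting any 1 array left it between 0.54 and 1.66. With quantile normalization or median centring this mean was 0.93 and 0.92, and the probe set dropped out of the 2-fold count. Of the remaining Wnt5a probe sets, 1437673_at passed a level of 5 only in foregut endoderm 2 (5.40, and 4.69 in foregut endoderm 1, against 2.55 and 4.71 in mesoderm/ectoderm 1 and 2). The other, 1456976_at, did not leave the floor on any array.

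Wnt5b, the close relative of Wnt5a, lay on the other side. Its probe set 1439373_x_at had levels of 5.38 and 5.92 in foregut endoderm 1 and 2, against 7.64 and 6.70 in mesoderm/ectoderm 1 and 2. Every mesoderm/ectoderm sample exceeded every foregut endoderm sample, by at least 0.77. The difference was -1.52 ± 0.50 (SE), made up of -2.26 in replicate 1 and -0.77 in replicate 2, with limma's adjusted p = 1. The suffix x marks probes that may bind other transcripts too, so the level may include them. The other Wnt5b probe set, 1422602_a_at, lay at 4.90 and 5.06 in foregut endoderm against 5.07 and 5.07 in mesoderm/ectoderm. On 3 of these arrays that was 2.79 above the array's floor, and the difference was -0.10 ± 0.31 (SE). Wnt11, a ligand of the same branch that acts in heart development, was not measured, with levels of 3.59 and 3.00 in foregut endoderm against 3.08 and 3.34 in mesoderm/ectoderm (1450772_at).

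Among the receptors, Fzd5 had the largest difference in size of the 13 probe sets. Fzd5, a Frizzled known in the mouse for its role in the eye field, had levels of 7.67 and 8.41 in foregut endoderm 1 and 2, against 10.79 and 10.04 in mesoderm/ectoderm 1 and 2 (1455604_at). Both mesoderm/ectoderm samples lay above both foregut endoderm samples, by at least 1.64. The means were 8.04 ± 0.52 and 10.42 ± 0.53 (SD, n = 2 each), a difference of -2.37 ± 0.49 (SE), or 5.19-fold lower in foregut endoderm, with limma's adjusted p = 0.893 and 0.481 with the block. It was -3.11 in replicate 1 and -1.64 in replicate 2. Without mesoderm/ectoderm 1, the sample with no measured heart transcripts, it was -2.00, and without foregut endoderm 1, which held them, -2.01. The summed neural plate markers lay in the same direction (2037 and 4561 in foregut endoderm, against 7924 and 6249 in mesoderm/ectoderm). So did their median levels (3.57 and 2.89, against 7.99 and 6.98), with single markers of the list differing. The forebrain factor Six3 was at 5.50 and 5.61 in foregut endoderm, against 8.60 and 8.01 in mesoderm/ectoderm. Otx2, a factor of the anterior head, was at 8.23 and 9.88 in foregut endoderm, against 10.91 and 9.80 in mesoderm/ectoderm, and Sox2 at 10.57 and 11.71 against 11.63 and 11.73. Their part in the Fzd5 difference was not tested. The other Fzd5 probe set, 1422937_at, never left the floor.

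Fzd8, a Frizzled closely related to Fzd5, showed no such gap. Its levels were 6.55 and 6.75 in foregut endoderm 1 and 2, against 7.23 and 6.77 in mesoderm/ectoderm 1 and 2 (1423348_at), so that the tissues of replicate 2 were 0.02 apart. The difference was -0.35 ± 0.35 (SE), within the spread of the fit. The dimmer probe set 1445815_at passed a level of 5 only in mesoderm/ectoderm 1 (5.64), against 4.33 in mesoderm/ectoderm 2, with 3.85 and 3.97 in foregut endoderm.

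The target gene Axin2, a scaffold of the complex that destroys beta-catenin and a widely used readout of canonical signalling, was lower in foregut endoderm within both replicates. Levels were 7.31 and 6.53 in foregut endoderm 1 and 2, against 8.61 and 8.47 in mesoderm/ectoderm 1 and 2 (1436845_at). The 2 tissues were at least 1.15 apart, and the mesoderm/ectoderm samples differed by only 0.15 from each other. The means were 6.92 ± 0.55 and 8.54 ± 0.10 (SD, n = 2 each), a difference of -1.62 ± 0.42 (SE), or 3.06-fold lower in foregut endoderm, with limma's adjusted p = 1 and 0.448 with the block, the lowest of the 13 in that fit. The replicates gave -1.30 and -1.93, and omitting any 1 array left it between -2.01 and -1.22. A second probe set, 1421341_at, stayed at the floor throughout.

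Lef1, a nuclear partner of beta-catenin and also a target of the pathway, separated 1 array from the other 3. Its levels were 6.66 and 5.24 in foregut endoderm 1 and 2, against 6.73 and 6.71 in mesoderm/ectoderm 1 and 2 (1454734_at). Foregut endoderm 2 was the low sample, and foregut endoderm 1 was within 0.07 of mesoderm/ectoderm 1. The difference was -0.77 ± 0.60 (SE) with limma's adjusted p = 1, and it was -0.06 without foregut endoderm 2. In foregut endoderm 2 the summed intensity of 8 head mesenchyme markers was 745, against 3492 in foregut endoderm 1 and 746 and 1044 in mesoderm/ectoderm 1 and 2, and that of 9 endothelial markers was 183, against 751, 224 and 587. Of the 8 head mesenchyme markers, 4 were lowest in foregut endoderm 2, as were 6 of the 9 endothelial ones. The 6 neural crest markers summed to 1110 and 241 in foregut endoderm 1 and 2, against 2810 and 2005 in mesoderm/ectoderm 1 and 2. Of these 6, 5 were lowest in foregut endoderm 2. The part of these cells in the Lef1 level was not tested. The other Lef1 probe set, 1421299_a_at, never left the floor.

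**Figure D2:**
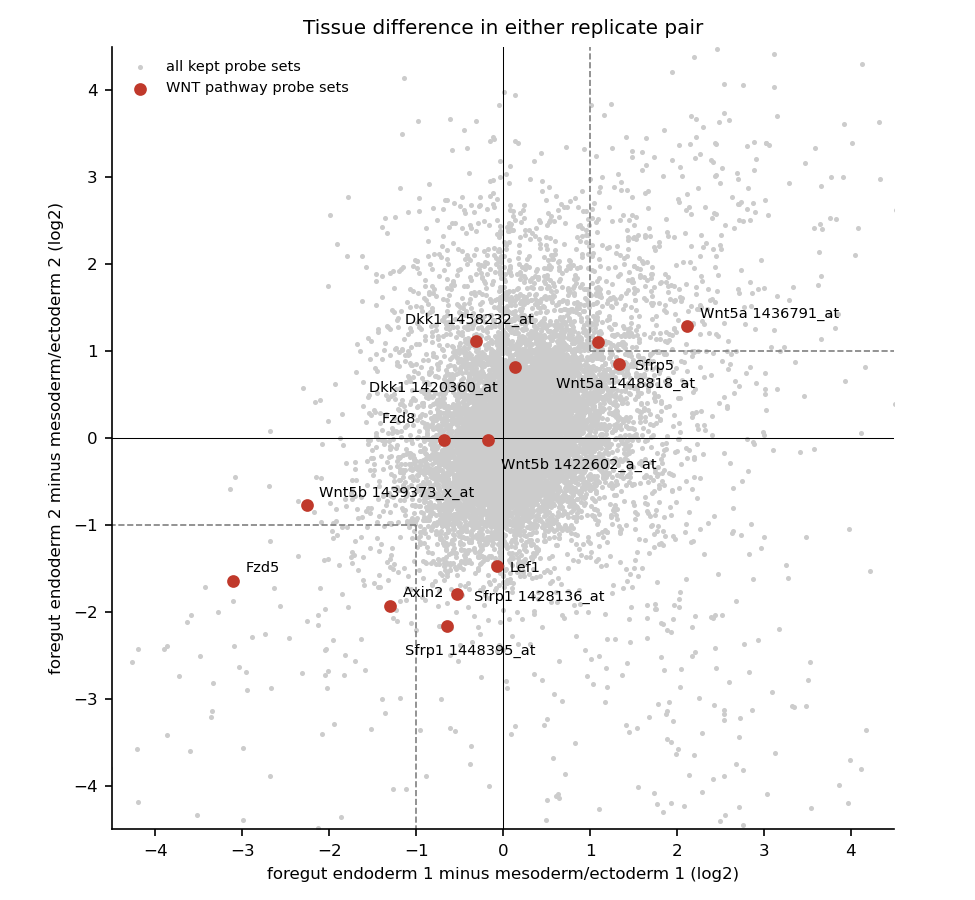
Log2 difference of foregut endoderm minus mesoderm/ectoderm in replicate 1 (horizontal axis) against that in replicate 2 (vertical axis) for all 13288 measured probe sets (grey) and the 13 WNT probe sets (red), with dashed lines at the 2-fold limit; 88 probe sets lie beyond the axes, which end at 4.5. Fzd5 and Axin2 lie inside the lower left corner and both Wnt5a probe sets inside the upper right corner.

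The antagonists of the SFRP family differed in direction. Sfrp5, known as a marker of foregut endoderm in the mouse embryo, had levels of 7.70 and 8.07 in foregut endoderm 1 and 2, against 6.37 and 7.22 in mesoderm/ectoderm 1 and 2 (1436075_at). Both foregut endoderm samples were above both others, by at least 0.49. The difference was 1.09 ± 0.45 (SE), or 2.13-fold, with 1.33 in replicate 1 and 0.85 in replicate 2, the second just under the 2-fold limit. Limma's adjusted p was 1, and 0.499 with the block. Without mesoderm/ectoderm 1 the difference was 0.67, and without mesoderm/ectoderm 2 it was 1.52. The other Sfrp5 probe set, 1423023_at, never left the floor.

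Sfrp1 was lower in foregut endoderm within both replicates on both measured probe sets. Probe set 1428136_at had levels of 8.51 and 6.66 in foregut endoderm 1 and 2, against 9.04 and 8.46 in mesoderm/ectoderm 1 and 2. The groups overlapped, as foregut endoderm 1 lay slightly above mesoderm/ectoderm 2. Its difference of -1.16 ± 0.77 (SE; limma's adjusted p = 1) consisted of -0.53 and -1.80 and came to -0.24 without foregut endoderm 2. Probe set 1448395_at had levels of 6.69 and 6.26 in foregut endoderm, against 7.34 and 8.42 in mesoderm/ectoderm. There the groups did not overlap, and the difference of -1.40 ± 0.52 (SE; limma's adjusted p = 1) consisted of -0.65 and -2.16. On both probe sets the larger difference was that of replicate 2, but different arrays made it so. Probe set 1428136_at was low in foregut endoderm 2 (6.66, against 8.51 in foregut endoderm 1). Probe set 1448395_at was high in mesoderm/ectoderm 2 (8.42, against 7.34 in mesoderm/ectoderm 1), and its difference was -0.86 without that array. Foregut endoderm 2 had summed heart, head mesenchyme and endothelial marker intensities of 1291, 745 and 183, against 14982, 3492 and 751 in foregut endoderm 1. The same sums were 144, 746 and 224 in mesoderm/ectoderm 1, where 1428136_at had its highest level, and 118023, 1044 and 587 in mesoderm/ectoderm 2. Summed neural crest markers were 1110 and 241 in foregut endoderm 1 and 2, against 2810 and 2005 in mesoderm/ectoderm 1 and 2. Like 1428136_at they were highest in mesoderm/ectoderm 1 and lowest in foregut endoderm 2, whereas 1448395_at was highest in mesoderm/ectoderm 2. The part of these cells in the Sfrp1 levels was not tested. The remaining Sfrp1 probe sets were below the filter, where 1438620_x_at and 1416594_at ranged from 4.17 to 5.26 and 1460187_at left the floor only in mesoderm/ectoderm 2 (3.74). Differences in replicates 1 and 2 were -0.09 and -1.09 for 1438620_x_at, and 0.47 and 0.00 for 1416594_at, which was not lower in foregut endoderm.

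Dkk1, an antagonist needed for the mouse head, is itself activated by the canonical pathway. Neither of its probe sets separated the tissues. Probe set 1458232_at had levels of 5.37 and 6.83 in foregut endoderm 1 and 2, against 5.68 and 5.72 in mesoderm/ectoderm 1 and 2. Foregut endoderm 2 was the high sample, so the difference was -0.31 in replicate 1 and 1.12 in replicate 2. Probe set 1420360_at had levels of 4.40 and 7.61 in foregut endoderm 1 and 2, against 4.27 and 6.79 in mesoderm/ectoderm 1 and 2. Both arrays numbered 2 were high and both numbered 1 were low, and the tissues differed by 0.14 and 0.82. The tissue differences of 0.40 ± 0.62 and 0.48 ± 1.53 (SE, with limma's adjusted p = 1 for both) were within the spread of the fit without a replicate term. For 1420360_at that spread includes the difference between the replicates. With the replicate block the SEs were 0.47 and 0.30 (limma's adjusted p = 0.779 and 0.633). Without foregut endoderm 2, and with no replicate term, the first difference became -0.33 and the second -1.13.

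The promoter windows of Axin2 and Dkk1 are printed because both genes are known targets of beta-catenin and showed different patterns here. RefSeq windows of GRCm38.p6, from 250 bases before to 50 after a start site, were given for 7 of the 10 genes, while Wnt5a, Fzd8 and Sfrp1 had none in the table. The core letters bound by TCF and LEF factors were searched on both strands as CTTTGA and CTTTGTT, which cannot match at the same base, and capitals mark a match. The Axin2 window is chr11:108920099-108920398 on the plus strand and the Dkk1 window chr19:30549447-30549746 on the minus strand.
Axin2: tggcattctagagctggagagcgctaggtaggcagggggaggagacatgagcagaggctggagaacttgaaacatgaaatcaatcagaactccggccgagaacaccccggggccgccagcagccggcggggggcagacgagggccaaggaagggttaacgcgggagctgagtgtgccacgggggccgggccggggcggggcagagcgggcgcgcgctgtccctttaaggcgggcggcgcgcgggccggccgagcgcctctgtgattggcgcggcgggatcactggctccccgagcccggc
Dkk1: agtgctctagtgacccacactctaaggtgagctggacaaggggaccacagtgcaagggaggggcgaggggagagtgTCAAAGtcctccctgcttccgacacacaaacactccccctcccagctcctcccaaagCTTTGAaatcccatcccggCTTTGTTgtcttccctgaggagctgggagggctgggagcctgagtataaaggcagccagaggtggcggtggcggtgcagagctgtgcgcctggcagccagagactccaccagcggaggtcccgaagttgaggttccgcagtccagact
The Dkk1 window held 3 matches, which began 174, 117 and 98 bases before the start site. The Axin2 window held 0, as did the only windows of Fzd5 and Sfrp5. Sequence outside these windows of 300 bases was not searched, so 0 matches do not show that a gene lacks such sites. Whether the matches bear on the levels was not tested. At least 1 match stood in 4 of the 13 windows of these genes and in 20.7% of all 32851 windows, and 3 or more in 0.338% of all.

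The largest differences between the replicates among the 13 probe sets were those of Dkk1 1420360_at. Replicate 2, with enzyme digestion, minus replicate 1, by hand, was 3.21 in foregut endoderm and 2.53 in mesoderm/ectoderm for this probe set, or 9.25-fold and 5.76-fold. In limma with tissue as a term, a comparison added after the values were seen, the replicate difference was 2.87 ± 0.30 (SE) with an adjusted p = 0.0966. No adjusted p in that fit was lower, and it called 0 of 13288 probe sets (0%) and had 3996 at an unadjusted p under 0.05. It was the only one of the 13 at least 2-fold higher in replicate 2 in both tissues, against a background of 11.4% of all probe sets. The second Dkk1 probe set, 1458232_at, was 1.46 higher in foregut endoderm 2 than in foregut endoderm 1 and 0.03 higher in mesoderm/ectoderm 2 than in mesoderm/ectoderm 1. In the other direction, Wnt5a probe set 1448818_at was at -1.10 in foregut endoderm and -1.12 in mesoderm/ectoderm, against a background of 7.19%, while Wnt5a 1436791_at was at -0.32 and 0.50. Summed endoderm markers were also higher in replicate 2, at 28580 in foregut endoderm 2 against 8518 in foregut endoderm 1, and 2965 in mesoderm/ectoderm 2 against 821 in mesoderm/ectoderm 1. The 7 visceral endoderm markers summed to 5599 against 1310, and 208 against 69, in the same order. Most of the sum in foregut endoderm 2 was Ttr, at a level of 12.13 against 9.76 in foregut endoderm 1. The median level of the 7 was not higher in foregut endoderm 2 (3.84 against 4.20) and was 3.40 against 3.38 in mesoderm/ectoderm. The part of endoderm and visceral endoderm cells in the Dkk1 levels was not tested. The way of dissection and the experiment cannot be told apart in these samples.

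**Figure D3:**
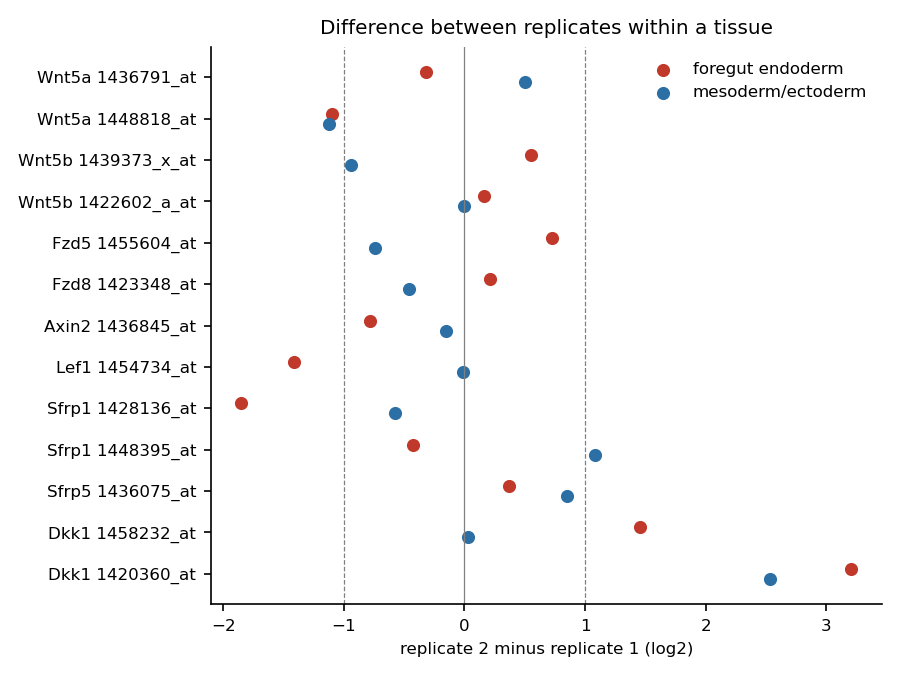
Log2 difference of replicate 2 (trypsin and pancreatin) minus replicate 1 (by hand) on the horizontal axis for the 13 measured WNT probe sets, in foregut endoderm (red) and mesoderm/ectoderm (blue), with dashed lines at the 2-fold limit. Dkk1 1420360_at lies at 3.21 and 2.53, and Wnt5a 1448818_at at -1.10 and -1.12.

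The wider pathway was read from a list of 105 genes sorted by role, of which 49 were on the array but below the filter. The 53 measured genes were the 9 above and 44 others. Limma called 0 of the 53. Differences of 2-fold or more with the same sign in both replicates occurred for 3 genes higher and 4 lower in foregut endoderm, 13.2% of the 53. The share was 4.78% of all 7802 measured genes (3.54% higher and 1.24% lower). Of these list genes, 1 higher (Wnt5a) and 2 lower (Fzd5 and Axin2) were among the 9 described above. Members and list were chosen with earlier results of these data known, so the 13.2% is no independent result. The median difference was 0.15 over the list. By role, the genes past the 2-fold limit were 1 of 5 ligands and secretion factors, 3 of 13 receptors and 2 of 8 antagonists. They were also 1 of 6 targets, 0 of 14 intracellular components and 0 of 7 planar polarity genes. The ligand (Wnt5a) and the target (Axin2) were genes already described. None of the 5 R-spondin and Norrin genes, which enhance WNT signalling, was measured.

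Of the 13 receptors, 7 were on the higher side in foregut endoderm in both replicates and 2, Fzd5 and Fzd8, on the lower side, by any size of difference. Of all 7802 measured genes 37.0% were higher and 24.3% lower in both by that count, which uses the brightest probe set. Fzd3 was on neither side, with -0.80 and 0.25, but its other measured probe sets gave -1.05 and -0.77, and -0.70 and -0.02. Fzd2 was also on neither side, with -0.17 and 0.66, and its others gave 0.12 and 0.00, and 0.64 and 0.03. For Fzd8 the difference in replicate 2 was -0.02, with each tissue 4.49 above its array's floor, and so no more than the offset between floors. Fzd4, the receptor of Norrin in vessels, had levels of 8.08 and 7.53 in foregut endoderm 1 and 2, against 6.40 and 5.11 in mesoderm/ectoderm 1 and 2. Its differences were 1.68 and 2.42, with a mean of 2.05 ± 0.60 (SE), and its other measured probe set gave 1.71 and 1.89. Fzd1 was at 7.64 and 8.35 in foregut endoderm, against 6.54 and 7.13 in mesoderm/ectoderm, a difference of 1.16 ± 0.45 (SE). For Fzd1 the mean was 0.98 after quantile normalization. Fzd6 differed by 0.33 in replicate 1 and 2.35 in replicate 2. The co-receptor Lrp6 and the alternative WNT receptor Ror2 were at 0.66 and 0.51.

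Among the antagonists, Shisa2 and Sfrp2 were 2-fold or more lower in foregut endoderm in both replicates. Shisa2, whose Xenopus relative holds Frizzled and FGF receptors inside the cell, was at 9.82 and 9.28 in foregut endoderm 1 and 2, against 11.93 and 11.01 in mesoderm/ectoderm 1 and 2. Its difference was -1.92 ± 0.50 (SE). Sfrp2 was at 5.56 and 3.99 in foregut endoderm, against 6.80 and 5.96 in mesoderm/ectoderm, a difference of -1.61 ± 0.72 (SE), and without foregut endoderm 2 it came to -0.82. Frzb, another SFRP-type antagonist, stood with Sfrp5 on the higher side, at 7.26 and 8.62 in foregut endoderm against 6.59 and 6.72 in mesoderm/ectoderm, with differences of 0.67 and 1.90. Apcdd1, a membrane inhibitor, gave -1.38 and -0.67. Its other measured probe sets gave -1.01 and -0.77, -0.84 and -0.73, and 0.07 and -0.02.

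Of the 6 measured targets, Axin2 alone was 2-fold or more apart in both replicates. Sp5, a direct target of beta-catenin, was at 4.84 and 7.48 in foregut endoderm 1 and 2, against 4.83 and 5.38 in mesoderm/ectoderm 1 and 2, so that its difference of 2.10 in replicate 2 had no counterpart in replicate 1 (0.01). Tnfrsf19 had the pattern described for Lef1, with -0.29 in replicate 1 and -2.18 in replicate 2. Beta-catenin itself (Ctnnb1) differed by 0.00 and 0.07 on its brightest probe set, and by 1.04 and -0.09 on its other measured one. Of the 7 measured planar polarity genes, which orient cells within a sheet, 6 were higher in foregut endoderm in both replicates by any size, against 37.0% of all genes, and 0 of them by 2-fold on the brightest probe set. Among them were Daam1 (0.70 and 0.82), Prickle1 (2.22 and 0.30) and Vangl2 (0.01 and 0.19), whose mean was -0.08 after quantile normalization or median centring. The epithelial endoderm markers lay in the same direction (sums of 8518 and 28580 in foregut endoderm, against 821 and 2965 in mesoderm/ectoderm), and their part was not tested. The Wnt3a probe set, at 5.59 and 5.61 in foregut endoderm against 5.62 and 5.63 in mesoderm/ectoderm, moved only as the array floors did.

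**Figure D4:**
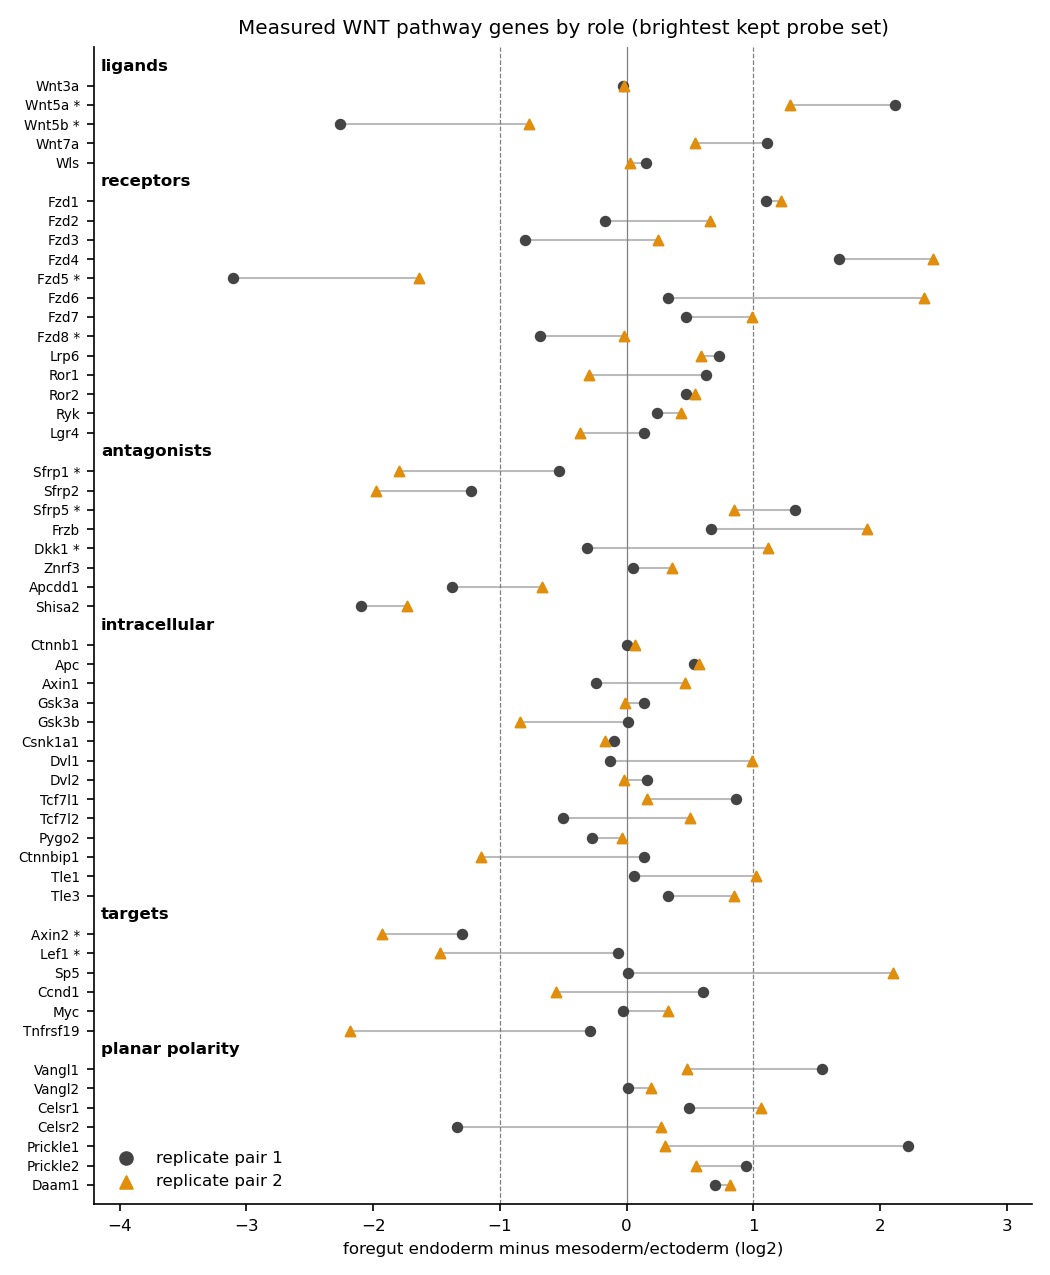
Log2 difference of foregut endoderm minus mesoderm/ectoderm (horizontal axis) in replicate pair 1 (circles) and replicate pair 2 (triangles) for the 53 measured WNT pathway genes by role, each on its brightest measured probe set, with dashed lines at the 2-fold limit and an asterisk at the 9 genes chosen by name. Wnt5a, Fzd1 and Fzd4 lie beyond the limit on the right in both pairs, and Fzd5, Sfrp2, Shisa2 and Axin2 on the left.

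The genes with the most similar patterns were sought for each measured member as the 3 with the smallest Euclidean distance between levels centred on their mean over the 4 arrays. For Wnt5a these were Foxp1, Nsmaf and Nol4l at distances of 0.148 to 0.166. Fzd5 was followed by Ptprn2, Six3 and Rai2 at 0.466 to 0.812, and Wnt5b by Astn1, Nrp and Ptprn2 at 0.280 to 0.420. Nfkbie, Ap1m1 and Mettl8 were nearest to Axin2 (0.131 to 0.237), and Hspa1b, Macir and Ndn to Lef1 (0.10 to 0.153). Rragd, Pacc1 and Nectin3 were nearest to Sfrp1 (0.175 to 0.311), Card10, Parva and Eif4g3 to Sfrp5 (0.106 to 0.163), Xrcc3, Ung and Fiz1 to Fzd8 (0.038 to 0.116), and B4galnt4, 1600014C10Rik and Ipp to Dkk1 (0.154 to 0.194). Over only 4 arrays such closeness describes these samples and no more.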

How the data were processed

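RNA of 4 pooled samples was amplified in 2 rounds and read on Affymetrix MOE430 arrays, per the labels. The values are one intensity per probe set, computed by the authors with GC-RMA (GenePattern) according to the series' design text; RMA is named per the submitters' processing notes. Their versions and settings were not given in the sources used. The linear scale was read from the values (4.75 to 75547), and log2 was taken here. The 64 control probe sets were left out, and the 932 annotated with several symbols were not named. Probe sets above a log2 intensity of 5 on at least 2 arrays were kept (13288).

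The tissue test was limma 3.58.1 under R 4.3.3 (lmFit, eBayes, two-sided, Benjamini-Hochberg, threshold 0.05) with no replicate term; the script was tested on simulated data. Replicate numbers pair the samples, since the labels' protocols give same-numbered tissues the same dissection; deviations of same-numbered arrays from their tissue means correlated at 0.565 across probe sets. P-values measure the spread between these samples, and 2 arrays per tissue limit the precision. The probe set with the highest mean stood for a gene in lists. Named were the 10 members, list genes at least 2-fold apart in both pairs, and 3 nearest patterns per member. Fzd2, Fzd3, Fzd6, Lrp6, Ror2, Frzb, Apcdd1, Sp5, Tnfrsf19, Ctnnb1, Daam1, Prickle1, Wnt3a, Vangl1, Vangl2, Otx2, Sox2, Rax, Tnni3 and Tnnt2 were named after their values were seen. The members and lists were chosen with earlier results of these data known.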

Additional observations from a re-analysis of the deposited data

Results flagged for a closer look

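Among the measured WNT probe sets, 1 had tissue differences of opposite sign in the replicates. For Dkk1 1458232_at, foregut endoderm minus mesoderm/ectoderm was -0.31 in replicate 1 and 1.12 in replicate 2. The change between the replicates was not tested, since each holds 1 array per tissue. Outlying samples were not sought, because each tissue has only 2.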

How the results depend on the processing

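Leaving out 1 array moved the count of probe sets at least 2-fold apart in both pairs from 607 to between 820 and 1622, and that of WNT probe sets from 4 to between 5 and 7; the remaining array of a tissue then served both pairs, which loosens the count by construction. The highest WNT count, 7, arose without foregut endoderm 1, and the highest count of all probe sets without mesoderm/ectoderm 1. A limit of 1.5-fold, chosen after the data were seen, also gave 7 WNT probe sets (3 higher and 4 lower). Quantile normalization and median centring gave 3, and shifted the median of all probe sets from 0.10 to -0.02 and -0.08. They changed the split of all 2-fold probe sets from 474 higher and 133 lower to 367 and 194, and 347 and 211. Of the 13 WNT differences, those of Dkk1 alone changed sign, and only without an array. Probe set 1420360_at came to -0.79 without mesoderm/ectoderm 1 and -1.13 without foregut endoderm 2 (range without any 1 array -1.13 to 2.08). Those fits had no replicate term and unequal replicates. They therefore mix its replicate differences (3.21 in foregut endoderm and 2.53 in mesoderm/ectoderm) into the tissue difference, which was 0.14 and 0.82 within replicates 1 and 2. Probe set 1458232_at came to -0.33 without foregut endoderm 2 (range without any 1 array -0.33 to 1.13), and the cause was not tested. With the replicate block limma called 0 probe sets and the 13 differences themselves did not move. Limma called 0 under every alternative run, with 206 to 1326 at an unadjusted p under 0.05 among kept probe sets and 1196 without a filter. Without a filter or with one at 6 the WNT count stayed 4. Counting a pathway gene when any of its measured probe sets passed gave 8 genes in place of 7, Vangl1 being added.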
